A study of Homo sapiens with 9 samples.

Results

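The genes described here are 10 genes read as output of the ERK pathway, taken by symbol from the gene count table. Called feedback genes for short, they include the phosphatase genes DUSP4, DUSP5 and DUSP6 and the Sprouty genes SPRY1, SPRY2 and SPRY4. The others are the SPRED genes SPRED1, SPRED2 and SPRED3, and the ETS factor gene ETV5, which encodes no inhibitor but is counted with them. All 10 were among the 61209 symbols counted and among the 16976 that passed the filter on low counts. They were measured by bulk RNA sequencing of GIST-T1, a human gastrointestinal stromal tumor (GIST) cell line that is 1 established line, is sensitive to imatinib and carries the KIT allele given in the labels as exon 11 del560-79. There were 3 libraries of cells transfected with siRNA against ESRRA, the gene of estrogen-related receptor alpha (siERRα; S4, S5 and S6), 3 of cells given a non-target siRNA and 50 nM imatinib, a KIT kinase inhibitor (imatinib; S16, S17 and S18), and 3 of cells given the non-target siRNA alone (siNC; S1, S2 and S3). All cells carried the KIT allele, were transfected and were harvested at 48 h, so no untransfected cells enter any comparison, and ERRα knockdown was not combined with imatinib in these libraries. Whether the 3 libraries of each group were grown as separate cultures is not stated, and a p-value here covers no more than the variation between libraries, which may be technical. It is also not stated whether the 3 groups were handled together, and a difference in handling could not be told apart from the treatments.

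ERK is the last kinase of the RAS, RAF, MEK and ERK cascade, which mutant KIT keeps active in GIST. ERK activity induces transcription of its own inhibitors: dual-specificity phosphatases (DUSPs) dephosphorylate the kinase, while Sprouty and SPRED proteins act further up, between the receptor and RAF. ETV5 is no inhibitor but an ETS transcription factor of the PEA3 group and a widely used readout of ERK output. Transcripts of these genes are often read together as a measure of pathway flux. The comparisons here give their transcript levels after ERRα knockdown and after imatinib, and ERK activity itself was not measured in these libraries.

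Library totals ran from 37527236 to 49363002 counts. ESRRA averaged 1.17 CPM (the count scaled to a TMM-normalized library total) in siERRα, 32.7 CPM with imatinib and 42.1 CPM in siNC, in keeping with the labels. KIT averaged 1366 CPM in siERRα, 1526 CPM with imatinib and 1305 CPM in siNC. All 8 GIST and Cajal cell markers passed the filter, with a summed level of 4005 to 4125 CPM in siERRα, 3934 to 4145 CPM with imatinib and 3717 to 3832 CPM in siNC. Against siNC, 6 of the 8 were higher and 2 lower with imatinib (adjusted p under 0.05 from edgeR). Of all genes tested, 21.4% were higher and 20.3% lower. In siERRα 3 of the 8 were higher and 0 lower, against 11.4% and 12.6% of all genes tested. None of the 5 leukocyte markers passed the filter, and their summed level was at most 0.476 CPM in any library. Mitochondrially encoded transcripts took 1.48 to 1.54% of counts in the imatinib libraries, against 0.943 to 1.03% in siERRα and 0.846 to 0.989% in siNC, and their part in the results with imatinib was not tested. Of 5 epithelial markers 3 passed the filter, without EPCAM and KRT19, and the list summed to 280 to 303 CPM in siERRα, 193 to 223 CPM with imatinib and 302 to 315 CPM in siNC, nearly all of it KRT18. The tested markers did not move together: KRT18 and KRT8 were lower with imatinib than in siNC (-0.59 and -0.42 on the log2 scale), and CDH1, the gene of E-cadherin, was higher (1.24, adjusted p = 0.00526 from edgeR) at no more than 1.02 CPM. Their part in the results was not tested. The 5 endothelial markers summed to at most 3.39 CPM in any library.

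The feedback genes differed most in the imatinib libraries. Summed over the 10 genes, they took 1543 ± 18.6 CPM in siERRα, 809.7 ± 30.8 with imatinib and 1491 ± 13.5 in siNC (SD, n = 3 libraries each, of raw library totals without TMM). Imatinib lowered 9 of the 10 genes, and ERRα knockdown raised 3 and lowered 2. Of all genes tested, 20.3% were called lower and 21.4% higher with imatinib, and 12.6% were called lower and 11.4% higher in siERRα (edgeR's quasi-likelihood test, adjusted p under 0.05). In bulk RNA, a smaller share of cells with a transcript and less of it in each cell cannot be told apart.

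**Figure D1:**
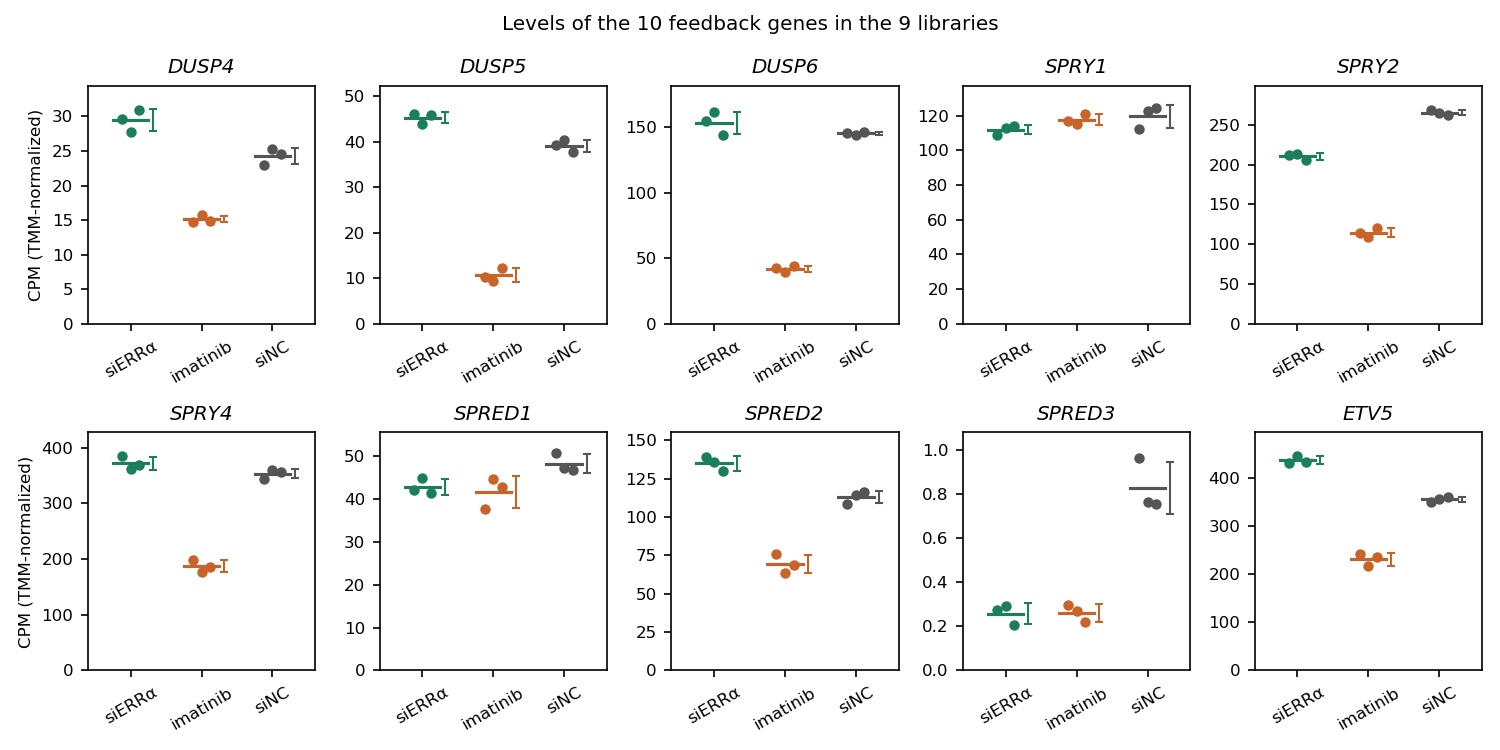
Levels of the 10 feedback genes in CPM (TMM-normalized) in the 9 libraries. Each point is 1 library, the horizontal line is the mean of the 3 libraries of a group and the bar beside it the SD; each vertical axis starts at 0. With imatinib, DUSP5 and DUSP6 sat at 10.7 and 42.1 CPM on average, far below their siERRα and siNC levels, while SPRY1 lay between 109 and 124 CPM in all 9 libraries.

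Ranked per kilobase of merged exon, so that genes of unequal length can be compared, the levels spanned more than 2 orders of magnitude. In siNC, SPRY2 was the most abundant at 82.5 ± 0.980 CPM per kilobase, followed by ETV5 at 61.5 ± 0.917 and SPRY4 at 53.9 ± 1.27 (SD, n = 3). DUSP6 had 37.7, SPRY1 30.2, SPRED2 20.6 and DUSP5 15.4 CPM per kilobase in siNC, and SPRED1, DUSP4 and SPRED3 had 6.23, 3.34 and 0.141. No neighbours in this order overlapped between their 3 siNC libraries. The order shifted in the other groups: ETV5 led in siERRα at 75.6 ± 1.46 and with imatinib at 40.0 ± 2.29 CPM per kilobase, ahead of SPRY2 at 65.5 ± 1.30 in siERRα and 35.6 ± 1.71 with imatinib. With imatinib, SPRY1 at 29.7 ± 0.768 and SPRY4 at 28.6 ± 1.58 CPM per kilobase overlapped between libraries and were not separated by their spread, nor were SPRED1 at 5.38 ± 0.472 and DUSP5 at 4.21 ± 0.612. No other neighbours overlapped in siERRα or with imatinib. Over the longest transcript in place of merged exons, ETV5 also led in siERRα and with imatinib, SPRY1 stood above DUSP6 in siERRα and siNC, and SPRY1 stood above SPRY2 with imatinib.

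DUSP6 encodes the cytoplasmic phosphatase that acts selectively on ERK, and it lies on chromosome 12 (GRCh38, 89347235 to 89352501, minus strand). It stood at 155, 161 and 145 CPM in siERRα, 42.4, 39.6 and 44.4 CPM with imatinib, and 146, 145 and 147 CPM in siNC. The imatinib libraries lay far below all others, whereas siERRα and siNC libraries overlapped. Against siNC, imatinib gave a log2 fold change of -1.79 (SE 0.0618, adjusted p = 1.74e-13 from edgeR), or 28.9% of the siNC level, and only 0.772% of the genes tested had a lower log2 fold change. The siERRα difference from siNC was 0.078 on the log2 scale with a 95% interval of -0.045 to 0.20 (adjusted p = 0.378 from edgeR), and siERRα exceeded imatinib by 1.87 (SE 0.0619, adjusted p = 8.21e-14 from edgeR). DUSP6 exons share 1105 bases, 28.6% of its merged exons, with a lncRNA gene on the other strand. That gene had at most 32 counts in any library, against 1470 to 7674 for DUSP6. The counting strand is not given, and these counts do not show whether reads in the shared bases were left uncounted.

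DUSP5 encodes a nuclear ERK-selective phosphatase (chromosome 10, 110497907 to 110511533, plus strand). Its level was 46.2, 44.0 and 45.8 CPM in siERRα, 10.3, 9.35 and 12.4 CPM with imatinib, and 39.3, 40.4 and 37.8 CPM in siNC, with no overlap between any 2 groups. With imatinib it had the lowest log2 fold change of the 10 genes, -1.88 (SE 0.0862, adjusted p = 8.98e-12 from edgeR), and 27.3% of its siNC level. In siERRα all 3 libraries were above siNC, by 0.21 on the log2 scale (95% interval 0.049 to 0.38), which did not pass the test over all genes (adjusted p = 0.0547 from edgeR). That value lay close to the threshold: DESeq2 gave 0.0358 and limma-voom 0.0343, and over the alternatives it ran between 0.0259 and 0.228. The difference between siERRα and imatinib was the widest of the 10 genes, at 2.09 (SE 0.0861, adjusted p = 8.53e-13 from edgeR).

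DUSP4, the gene of a nuclear phosphatase that acts on ERK and on the stress kinases JNK and p38, lies on chromosome 8 (29333064 to 29350684, minus strand). It had 29.6, 27.8 and 30.9 CPM in siERRα, 14.8, 15.7 and 14.9 CPM with imatinib, and 23.0, 25.3 and 24.5 CPM in siNC. The 3 groups did not overlap, siERRα being the highest. With imatinib it fell by 0.68 on the log2 scale (SE 0.0743, adjusted p = 6.07e-07 from edgeR), less than DUSP5 and DUSP6. ERRα knockdown raised it by 0.28 (SE 0.0709, adjusted p = 0.00699 from edgeR). Leaving out S1 (adjusted p = 0.0521 from edgeR) or S6 (0.0548) ended this call.

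SPRY2, whose product binds GRB2 and the ubiquitin ligase CBL and restrains signalling from receptors to RAS and RAF, lies on chromosome 13 (80335976 to 80341126, minus strand). Its level was 212, 213 and 206 CPM in siERRα, 114, 109 and 120 CPM with imatinib, and 268, 264 and 262 CPM in siNC. The groups did not overlap, and SPRY2 was lower than siNC under both treatments. With imatinib it fell by 1.21 on the log2 scale (SE 0.0534, adjusted p = 4.57e-12 from edgeR), to 43.1% of the siNC level. In siERRα it fell by 0.33 (SE 0.0523, adjusted p = 0.000107 from edgeR), to 79.4%, the opposite direction to DUSP4, SPRED2 and ETV5.

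SPRY4, which encodes a Sprouty that acts on RAS and RAF activation (chromosome 5, 142310427 to 142326455, minus strand), was likewise lower with imatinib and not called in siERRα. It stood at 385, 362 and 369 CPM in siERRα, 198, 178 and 186 CPM with imatinib, and 344, 360 and 356 CPM in siNC. Imatinib put it at 53.0% of siNC, a log2 fold change of -0.92 (SE 0.0550, adjusted p = 2.59e-10 from edgeR). The siERRα libraries all lay above siNC, but by only 0.075 on the log2 scale (95% interval -0.038 to 0.19, adjusted p = 0.357 from edgeR).

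SPRY1, the remaining Sprouty gene of the set (chromosome 4, 123396795 to 123403760, plus strand), did not pass the test in any comparison. It had 109, 113 and 114 CPM in siERRα, 117, 115 and 121 CPM with imatinib, and 112, 122 and 124 CPM in siNC. Both treated groups overlapped siNC. The imatinib difference was -0.023 on the log2 scale with a 95% interval of -0.14 to 0.095 (adjusted p = 0.777 from edgeR), and the siERRα difference -0.097 with an interval of -0.21 to 0.022 (adjusted p = 0.242 from edgeR). With imatinib, the intervals of SPRY2 and SPRY4 ended at -1.10 and -0.80 and did not meet that of SPRY1.

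The promoters of DUSP6, SPRY2 and SPRY4, which were lower with imatinib, are shown beside that of SPRY1, which was not called, to give the sequence at their start sites. RefSeq's promoter table (GRCh38.p14) held entries for 7 of the 10 genes and none for DUSP4, DUSP5 and ETV5. Each run below is the 250 bases before the annotated start site, 5′ to 3′ on the gene's strand, and where a gene had several entries the one at the canonical start was taken. Capitals mark matches on either strand to CGGAA, a form of the ETS site, or to TGACG, only part of the cyclic AMP response element. ETS and CREB family factors bind these motifs. GGAA after a base other than C, which the SPRY1 window also holds, was neither searched nor marked. SPRY4 has a single entry, whose start lies 774 bases from the canonical start of GENCODE release 44.
DUSP6, chr12:89352502-89352751, minus strand: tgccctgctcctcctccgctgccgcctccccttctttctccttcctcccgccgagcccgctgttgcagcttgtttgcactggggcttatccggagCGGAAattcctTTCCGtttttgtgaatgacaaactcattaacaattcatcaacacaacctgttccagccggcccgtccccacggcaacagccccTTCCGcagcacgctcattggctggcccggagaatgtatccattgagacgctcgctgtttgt
SPRY2, chr13:80341127-80341376, minus strand: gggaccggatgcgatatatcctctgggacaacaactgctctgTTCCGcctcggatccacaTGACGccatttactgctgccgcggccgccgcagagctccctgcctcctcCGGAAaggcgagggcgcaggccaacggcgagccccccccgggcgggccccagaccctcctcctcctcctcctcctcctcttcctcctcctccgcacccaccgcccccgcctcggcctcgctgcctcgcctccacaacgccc
SPRY4, chr5:142324248-142324497, minus strand: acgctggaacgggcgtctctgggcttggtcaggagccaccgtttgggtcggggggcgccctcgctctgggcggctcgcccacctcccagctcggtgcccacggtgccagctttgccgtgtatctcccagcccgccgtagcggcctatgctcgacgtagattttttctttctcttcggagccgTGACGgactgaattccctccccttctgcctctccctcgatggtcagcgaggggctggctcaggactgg
SPRY1, chr4:123396545-123396794, plus strand: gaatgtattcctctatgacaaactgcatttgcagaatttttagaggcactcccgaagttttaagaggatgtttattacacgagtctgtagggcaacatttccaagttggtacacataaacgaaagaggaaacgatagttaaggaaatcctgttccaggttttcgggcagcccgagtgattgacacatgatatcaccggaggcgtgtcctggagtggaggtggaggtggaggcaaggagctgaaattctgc
The DUSP6 window held 3 CGGAA matches, the first 155 bases and the last 61 bases before the start site, counted to the outer base. The SPRY2 window held 2 CGGAA matches and 1 TGACG, and the SPRY4 window 1 TGACG. The windows of SPRY1, SPRED1, SPRED2 and SPRED3 held none of the motifs as searched. Of these genes, SPRED1, SPRED2 and SPRED3 were called lower with imatinib, so genes without a match were found on both sides. Also searched on both strands were AP-1 (TGACTCA), the CArG box of serum response factor and the ERR element (AAGGTCA), none of which had a match in the 7 windows; no matches overlapped, and a match or its absence in these letters shows no binding. Of 35116 promoter windows of the same length, 30.3% held CGGAA, 21.2% TGACG, 4.2% TGACTCA, 1.16% a CArG box and 3.44% AAGGTCA. The SPRY1 window had 45.6% G and C, against 70.4% for SPRY2, 65.6% for SPRY4 and 57.2% for DUSP6, with a median of 58.0% over all windows. The windows not printed had 78.4% for SPRED1, 58.8% for SPRED2 and 64.8% for SPRED3.

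SPRED1 brings the RAS inactivator neurofibromin to the membrane, and its gene lies on chromosome 15 (38252836 to 38357249, plus strand). It had 42.2, 45.0 and 41.4 CPM in siERRα, 37.6, 44.6 and 42.8 CPM with imatinib, and 50.8, 47.1 and 46.8 CPM in siNC. Every treated library was below every siNC library. The difference was small in both cases: -0.21 with imatinib (SE 0.0717, adjusted p = 0.0233 from edgeR) and -0.17 in siERRα (SE 0.0712, adjusted p = 0.0950 from edgeR). The imatinib call ended without S1 (adjusted p = 0.110 from edgeR) or S16 (0.113). The siERRα value passed the threshold when only the 6 libraries compared were fitted (adjusted p = 0.0408 from edgeR) and without S5 (0.0416) or S16 (0.0417), and ran to 0.310 over the alternatives.

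SPRED2, a relative of SPRED1 that inhibits RAF activation (chromosome 2, 65310851 to 65432637, minus strand), had 139, 136 and 130 CPM in siERRα, 75.7, 63.8 and 68.8 CPM with imatinib, and 108, 114 and 117 CPM in siNC. The groups did not overlap, and the treatments moved it in opposite directions. Its log2 fold change against siNC was 0.25 in siERRα (SE 0.0634, adjusted p = 0.00596 from edgeR) and -0.70 with imatinib (SE 0.0646, adjusted p = 6.61e-08 from edgeR).

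SPRED3, a SPRED whose KIT-binding domain is not functional, was the only member near the detection limit (chromosome 19, 38388421 to 38399587, plus strand). It had 13, 14 and 8 counts in siERRα, 11, 10 and 8 counts with imatinib, and 43, 30 and 38 counts in siNC. In CPM these were 0.273, 0.295 and 0.206 in siERRα, 0.298, 0.269 and 0.219 with imatinib, and 0.962, 0.763 and 0.754 in siNC. Both treated groups lay below siNC by a like amount, -1.66 in siERRα (SE 0.307, adjusted p = 0.000539 from edgeR) and -1.65 with imatinib (SE 0.318, adjusted p = 0.000365 from edgeR). The same 3 siNC libraries enter both values, so their likeness is not independent. SPRED3 reached the CPM minimum of the filter, 0.257, in 2 of 3 siERRα, 2 of 3 imatinib and 3 of 3 siNC libraries, where 3 libraries were needed. The intervals were wide at these counts, -2.30 to -1.01 in siERRα and -2.31 to -0.98 with imatinib, and a requirement of at least 10 counts in every library removed it.

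ETV5 (chromosome 3, 186046314 to 186110318, minus strand) stood at 430, 446 and 433 CPM in siERRα, 242, 216 and 235 CPM with imatinib, and 349, 357 and 359 CPM in siNC. It was the highest in siERRα and the lowest with imatinib, with no overlap. Knockdown of ERRα raised it by 0.30 on the log2 scale (SE 0.0532, adjusted p = 0.000384 from edgeR), to 122.9% of siNC, and with imatinib it fell by 0.62 (SE 0.0536, adjusted p = 2.96e-08 from edgeR), to 65.0%. ETV5 shares 164 exon bases, 2.84% of its merged exons, with DGKG on the same strand, which had 1466 to 3136 counts.

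**Figure D2:**
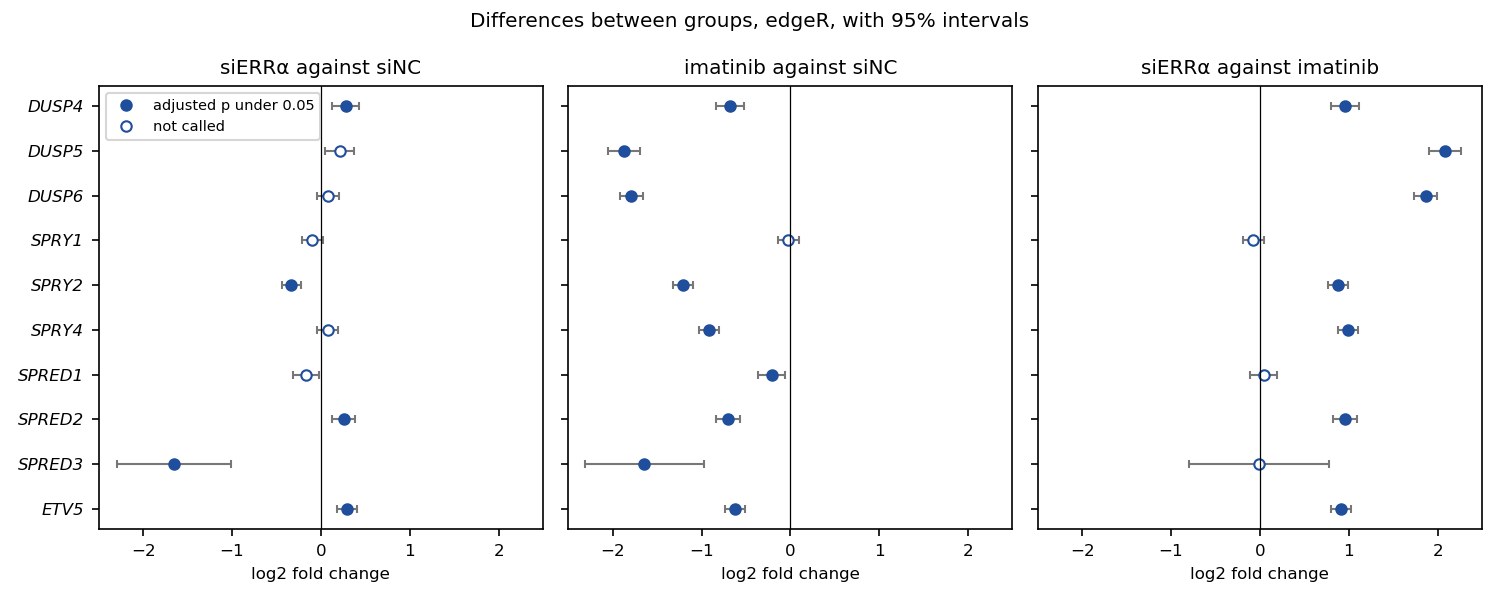
Log2 fold changes of the 10 genes in the 3 comparisons, from edgeR with 95% intervals; filled points have an adjusted p under 0.05. The horizontal axes are the same in all panels. With imatinib 9 filled points lie below 0 and SPRY1 is open at -0.023, while for siERRα against siNC all but SPRED3 lie between -0.33 and 0.30.

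Compared with siNC, imatinib lowered 9 of 10 members and raised none, where 20.3% of all genes tested were called lower. Groups did not overlap for 9 members, against 52.0% of genes tested, and 8 members also moved by 0.5 or more on the log2 scale, against 17.6% of genes tested. The median log2 fold change of the 10 was -0.81, beside 0.0023 for all genes. Scaling by library totals alone made 40.3% of all calls higher in place of 51.3%, and gave a median of -0.059 for all genes, but left 9 members lower with a median of -0.87.

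ERRα knockdown had a small and mixed effect on the same genes. It raised DUSP4, SPRED2 and ETV5 and lowered SPRY2 and SPRED3, so that 3 of 10 were higher (11.4% of all genes tested) and 2 lower (12.6%). The groups did not overlap for 8 of 10, against 38.6% of genes tested. Only SPRED3 reached an absolute log2 fold change of 0.5, against 7.26% of genes tested. The median of the 10 was 0.077, beside 0.0085 for all genes.

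The difference between the treatments was tested by the contrast of siERRα with imatinib. Its fold changes are between those groups, while the siNC libraries, which both other comparisons share, still entered the filter, the scaling and the estimate of the spread. A fit of only the 6 siERRα and imatinib libraries also called 7 members higher. Of the 10 genes, 7 were higher in siERRα and none lower, against 25.6% of all genes called higher and 26.6% called lower. All 7 also passed the fold limit of 0.5, against 26.3%, and 8 did not overlap, against 56.9%. The 7 were DUSP4, DUSP5, DUSP6, SPRY2, SPRY4, SPRED2 and ETV5, with differences between 0.88 for SPRY2 and 2.09 for DUSP5, and the median of the 10 was 0.94, beside -0.0045 for all genes. SPRY2 was thus lower than siNC under both treatments, yet 0.88 higher in siERRα than with imatinib (SE 0.0532, adjusted p = 1.13e-10 from edgeR). SPRY1 at -0.073 (95% interval -0.19 to 0.045), SPRED1 at 0.042 (-0.11 to 0.19) and SPRED3 at -0.011 (-0.80 to 0.78) did not pass, and the SPRED3 interval leaves room for a large difference either way.

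Ratios between related genes within a library do not depend on scaling, and 6 were formed after the values had been seen, each with the gene of the lower log2 fold change with imatinib on top, so they are descriptions with no test. SPRY2 had 1.95, 1.89 and 1.81 counts for each SPRY1 count in siERRα, 0.976, 0.946 and 0.991 with imatinib, and 2.39, 2.16 and 2.11 in siNC. The ratio of DUSP6 to DUSP4 averaged 5.24 ± 0.569 in siERRα, 2.79 ± 0.232 with imatinib and 6.01 ± 0.311 in siNC (SD, n = 3). ETV5 had 1.45 ± 0.0467 counts for each count of ETV1, another PEA3 factor, in siERRα, 0.642 ± 0.0830 with imatinib and 1.43 ± 0.0263 in siNC. The choice of genes fixed the direction with imatinib, and the ratios give its size. In siERRα, the ratio of SPRED2 to SPRED1 averaged 3.15 ± 0.145, against 2.35 ± 0.188 in siNC, and did not overlap, whereas ETV5 over ETV1 overlapped.

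**Figure D3:**
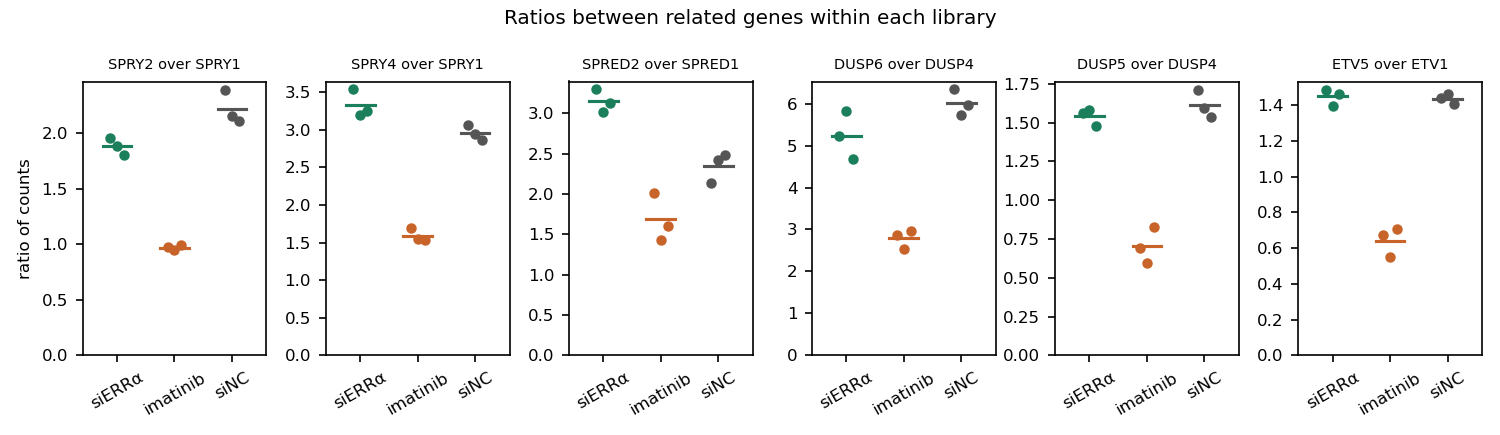
Ratios of raw counts between related genes within each library; each point is 1 library and the line the mean of 3. Axes start at 0. In every panel the imatinib libraries are the lowest, near 0.971 for SPRY2 over SPRY1, against 1.88 in siERRα and 2.22 in siNC.

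Paralogs outside the set divided as well. ETV4, the third PEA3 gene of the group, fell by 1.20 on the log2 scale with imatinib (adjusted p = 1.80e-09 from edgeR), whereas ETV1, a lineage factor of GIST and Cajal cells, was 0.55 higher (adjusted p = 1.00e-06 from edgeR). In siERRα both were higher, ETV4 by 0.28 (adjusted p = 0.0141 from edgeR) and ETV1 by 0.29 (adjusted p = 0.00226 from edgeR), close to the 0.30 of ETV5. SPRY3 passed in neither comparison, at -0.36 with imatinib and -0.64 in siERRα (adjusted p = 0.563 and 0.360 from edgeR).

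Among 9 other genes of MAP kinase phosphatases, 5 were lower and 1 higher with imatinib, with a median of -0.29. Of all genes tested, 20.3% were lower and 21.4% higher with imatinib. DUSP1, an immediate early phosphatase of p38, JNK and ERK, fell by 0.96 (adjusted p = 1.27e-08 from edgeR), and DUSP8, which acts on JNK and p38, by 0.89 (adjusted p = 9.82e-06 from edgeR). The others called lower were DUSP2 (-0.66), DUSP10 (-0.51) and DUSP3 (-0.29), and the 1 called higher was DUSP16 (0.27). In siERRα 1 was lower and 1 higher, near the shares of all genes tested (12.6% and 11.4%). DUSP7, a cytoplasmic ERK phosphatase related to DUSP6, fell by 0.95 (adjusted p = 2.30e-07 from edgeR), and DUSP10 rose by 0.32 (adjusted p = 0.0152 from edgeR). DUSP7 stood at -0.10 with imatinib (adjusted p = 0.349 from edgeR) and was 0.84 lower in siERRα than with imatinib (SE 0.0881, adjusted p = 1.78e-07 from edgeR), a direction opposite to that of DUSP6.

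Of 22 other transcripts commonly read as ERK output, 17 were tested, and this list also holds ETV4 and SPRY3. With imatinib 13 were lower and 1 higher, against 20.3% lower and 21.4% higher of all genes tested, with a median of -1.21. Those with the smallest p were TRIB1, a pseudokinase gene (-1.56), PHLDA1 (-0.94), UPP1, the gene of uridine phosphorylase (-1.68), and LIF, a cytokine of the interleukin 6 family (-2.78). In siERRα 7 were lower and 3 higher, against 12.6% lower and 11.4% higher of all genes tested, with a median of -0.27. Of the 4 with the smallest p, CCND1, the gene of cyclin D1 (-0.51), and the growth factor gene HBEGF (-0.78) were lower, and TRIB1 (0.58) and the ephrin receptor gene EPHA4 (0.45) were higher. Set beside each other, these transcripts outside the feedback genes were 1.14 higher in siERRα than with imatinib at the median. Of the 17, 14 were called higher and 1 lower, against 25.6% and 26.6% of all genes tested.

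The genes of the cascade itself moved little with imatinib. Of 12 core genes from RAS to ERK, only NRAS was called, at -0.55 (adjusted p = 8.16e-07 from edgeR), where 20.3% of all genes tested were lower and 21.4% higher. After ERRα knockdown NRAS was at -1.16 (adjusted p = 1.75e-10 from edgeR), lower than with imatinib by a log2 difference of -0.61 (adjusted p = 1.35e-07 from edgeR), and KSR1, the gene of a RAF scaffold, was -0.36 (adjusted p = 0.0175 from edgeR). MAPK3, the gene of ERK1, was 0.22 higher (adjusted p = 0.0165 from edgeR) and SOS1, a RAS activator, 0.23 higher (adjusted p = 0.0197 from edgeR). The median of the 12 was -0.050 with imatinib and 0.10 in siERRα.

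Inhibitors of receptor or RAS signalling other than the members showed no common direction. Of 15, imatinib lowered 5 and raised 4, against 20.3% lower and 21.4% higher of all genes tested, with a median of -0.039. LRIG1 (0.48) and IL17RD (0.81), both antagonists of receptor tyrosine kinase signalling, were higher, while ERRFI1 (-0.61), an EGFR inhibitor, and CBL (-0.31) were lower. In siERRα 2 were lower, ERRFI1 (-0.43) and IL17RD (-0.35), and 1 was higher, RASA2 (0.36), the gene of a RAS GTPase-activating protein. These counts were near the shares of all genes tested, 12.6% lower and 11.4% higher.

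**Figure D4:**
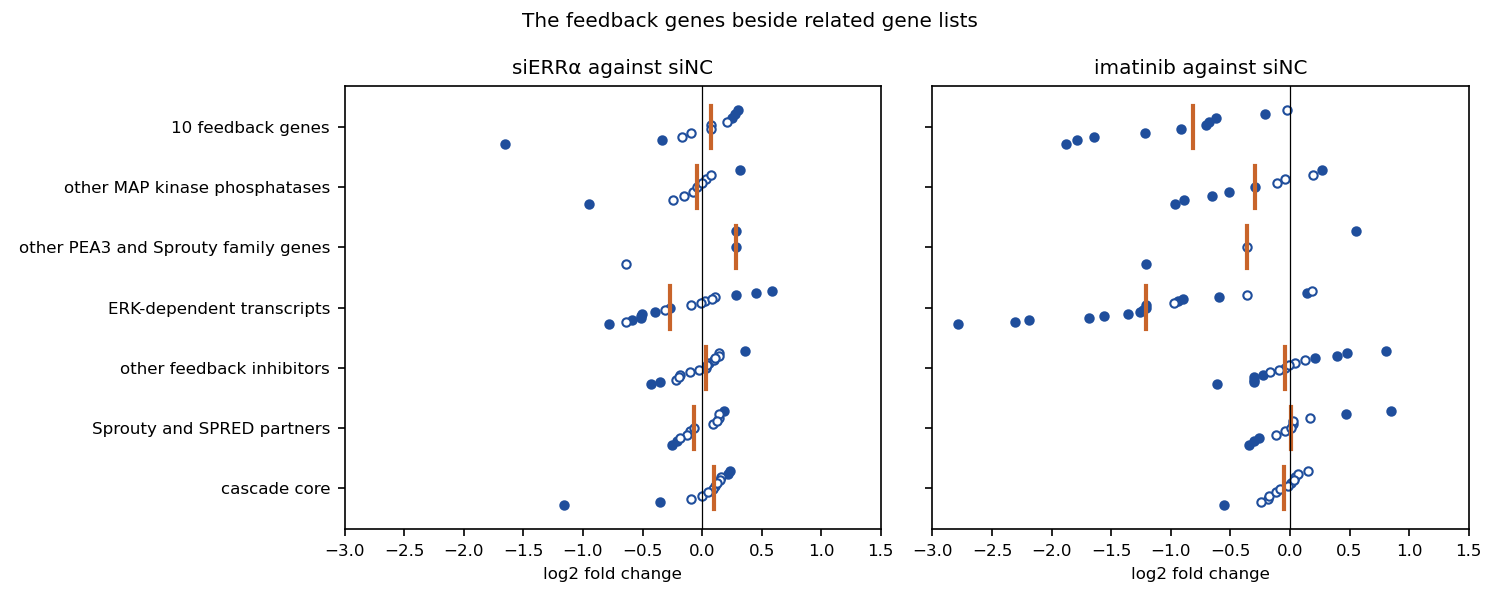
Log2 fold changes of the 10 feedback genes and of 6 related lists, from edgeR. Each point is a gene, filled where the adjusted p is under 0.05, and the vertical line is the list's median; points are spread vertically for legibility and some genes, among them ETV4, SPRY3 and CBL, stand in 2 lists. With imatinib the medians of the feedback genes (-0.81) and of the ERK-dependent transcripts (-1.21) lie furthest below 0.

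The genes whose log2 CPM followed DUSP6 most closely over the 9 libraries were sought among 10428 genes outside the set with an average of at least 5 CPM. They were TNFRSF10D (Pearson r = 0.998), a decoy receptor for TRAIL, CBFB (0.998), the partner subunit of RUNX factors, CLDN1 (0.997), a tight junction protein gene, SLC2A3 (0.996), a glucose transporter gene, and BTN2A1 (0.996). Within the set, SPRY4 (0.994) and DUSP5 (0.994) came closest to DUSP6, and SPRY1 did not follow it (-0.21). The 9 libraries are 3 groups of 3 that share a treatment, so these values describe group levels and are given with no p.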

How the data were processed

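Bulk polyA RNA of GIST-T1 cells was sequenced as paired reads. The authors mapped reads to GRCh38 using STAR 2.7.3a and obtained gene counts with featureCounts 2.0.1, as their methods and the submitters' processing notes give it. The deposited counts are raw, with 1 column per library. Which annotation release, strand setting and rule for multi-mapped reads was used is not given in the sources used. Columns were assigned to groups through the S number shared with the labels.

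Counts were normalized by TMM, filtered with filterByExpr (minimum count 10, minimum total 15) and tested with edgeR 4.0.16 in R 4.3.3 (robust quasi-likelihood F-test) in a single model of 9 libraries, and p-values were adjusted by Benjamini-Hochberg across the genes tested. The study's methods used DESeq2, an alternative here. Standard errors come from each fold change and its F statistic. Correlations used log2 CPM (prior count 2). The test was checked on simulated data for imatinib against siNC only, with the same spread for every gene. Changes were planted only in genes of at least 10 CPM, so the check does not cover SPRED3. Positions and exon lengths came from GENCODE release 44, promoters from RefSeq. Genes were named by rule: all members, ESRRA, KIT, up to 4 genes of smallest p per related list, every gene of lists of at most 3, and the 5 genes most like DUSP6. DUSP2, DUSP16, genes shared by 2 lists, and values of a named gene in a second comparison, were added after their values were seen. The results of some genes are not reported here. The members and lists were chosen with earlier results of these data known. Alternatives were DESeq2 1.42.0, limma-voom (limma 3.58.1), other scalings and filters, thinned counts, the 6 libraries compared, a fold limit, column numbers as a block and leaving out each library. Python 3.11.15 served for ratios, promoters and figures.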

Additional observations from a re-analysis of the deposited data

How the results depend on the processing

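Of 537 values of single members under an alternative, 516 kept their direction and their side of the threshold, 10 passed it newly, 4 lost it and 7 changed sign, all 7 among differences that never passed. These were SPRED3 in siERRα against imatinib, at 0.027 with library totals alone and 0.049 with thinned counts, and values with 1 library left out, which ran from -0.13 to 0.10 for SPRED3 and -0.033 to 0.088 for SPRED1 in siERRα against imatinib, and from -0.069 to 0.0050 for SPRY1 with imatinib against siNC. With at least 10 counts in every library, 1 member was lower in siERRα in place of 2, since SPRED3 dropped out. A fold limit of 0.5 by construction left 1233 of 4064 genes for siERRα against siNC, 2988 of 7072 for imatinib against siNC and 4468 of 8865 for siERRα against imatinib, and 1 of 5 members for siERRα against siNC. Column numbers were not taken to pair libraries, since deviations of same-numbered libraries correlated between -0.0996 and 0.147. As a replicate block they gave 3652, 6764 and 8612 genes and the same member counts of 5, 9 and 7. Without SPRED3, a choice made after seeing the data, the median of the members moved to 0.078 in siERRα and -0.70 with imatinib against siNC and 0.96 between them. Depth limits SPRED3 alone among the members. The calls of DUSP4, DUSP5 and SPRED1 in siERRα and of SPRED1 with imatinib lay near the threshold and turned on single libraries or on the tool.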

Other observations

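Of 11 genes of proteins that bind Sprouty or SPRED proteins or act with them, 3 were lower and 2 higher with imatinib. Their median log2 fold change was 0.0090, and the counts were near the shares of all genes tested, 20.3% lower and 21.4% higher. CAV1, the gene of caveolin 1, was 0.85 higher (adjusted p = 1.43e-09 from edgeR), as was the adaptor gene GAB1 by 0.47 (adjusted p = 9.53e-06 from edgeR), and the adaptor gene SHC1 was lower at -0.34 (adjusted p = 9.91e-05 from edgeR). In siERRα 2 of the 11 were lower, CAV1 at -0.25 and PTPN11, the gene of the phosphatase SHP2, at -0.21. The adaptor gene GRB2 alone was higher, at 0.19, where 12.6% of all genes tested were lower and 11.4% higher.

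Of 7 receptor tyrosine kinase genes, 5 were higher and none lower with imatinib, against 21.4% higher and 20.3% lower of all genes tested. In the same libraries 9 of the 10 feedback genes were lower, and a link between these lists was not tested. EGFR was 0.80 higher (adjusted p = 1.07e-08 from edgeR), MET 1.15 higher (adjusted p = 1.91e-05 from edgeR), PDGFRB 0.27 higher and KIT 0.23 higher (adjusted p = 0.00524 from edgeR). In siERRα 2 of the 7 were lower, MET at -0.83 and PDGFRB at -0.25, and PDGFRA was 0.43 higher (adjusted p = 7.24e-05 from edgeR). Of all genes tested, 12.6% were lower and 11.4% higher in siERRα.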
